A study of Homo sapiens with 16 samples.

Results

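The 8 large ribosomal subunit protein genes RPL22, RPL11, RPL5, RPL31, RPL37A, RPL32, RPL15 and RPL14 were followed in ribosome profiling and mRNA libraries. They were chosen by symbol in the authors' published table of genes, of which 1998 symbols were used, and all 8 were found with 1 transcript each. They are 8 of the 19044 transcripts that could be joined between the assays and 8 of the 10970 that passed a filter on low counts, which all 8 members passed. The readable part of that table named none of 45 other large-subunit proteins, so the 8 stand only for themselves. The samples were HEK293T cells, human embryonic kidney cells with a large T antigen gene, and every group was this 1 line with no genetic change between groups. Cells were left untreated, treated for 1 hr with 1 µg/ml tunicamycin (Tm), treated for 1 hr with Tm and 200 nM ISRIB, or treated for 1 hr with 200 nM ISRIB alone. The 4 treatments had 2 replicates each, lettered a and b. Part of each lysate went to Ribo-Seq, which counts ribosome-protected fragments (RPFs), and the rest to mRNA-Seq, for 16 libraries in all. Of the 6 marker genes of blood, connective tissue, muscle and endothelial cells fixed for a check of the cell type, none had a readable symbol, and the line's identity was not analysed here.

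Proteins of the large subunit surround the ribosomal RNA that forms the peptide bond and line the tunnel through which the new chain leaves. Cells make them in about equal amounts, and in vertebrates their mRNAs typically begin with a 5′ terminal oligopyrimidine (TOP) tract, a C followed by pyrimidines, through which the mTORC1 pathway and the RNA-binding protein LARP1 set their translation. Mutations in several of these genes, RPL5 and RPL11 among them, cause Diamond-Blackfan anaemia. Tm blocks N-linked glycosylation and so stresses the endoplasmic reticulum (ER), which activates the kinase PERK. PERK phosphorylates the initiation factor eIF2 on its α subunit, and phosphorylated eIF2 inhibits its exchange factor eIF2B. ISRIB binds eIF2B and makes cells insensitive to that phosphorylation.

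The starts of the genes are shown because the 8 genes moved together in Ribo-Seq and the TOP tract is the sequence known to be shared by their class. RefSeq promoter windows on GRCh38.p14 were available for 7 members, and RPL5 had no entry. A tract was searched on the gene's own strand as a C followed by at least 4 bases that are each C or T. It lay exactly at a listed start of 5 of the 7 members, and at a listed start of 5.14% of 27305 genes or 4.07% of 35116 windows. Each line below gives 8 bases before the tract and 20 from its first base on, with the tract in capitals. For RPL22, RPL11, RPL31, RPL37A and RPL14 the first capital is the listed start of transcription.
RPL22 (chr1:6199576-6199603, minus strand): ctcacctcCCTTTCTaactccgctgccg
RPL11 (chr1:23691798-23691825, plus strand): tccgctttCTCTTCCTgctctccatcat
RPL31 (chr2:101002281-101002308, plus strand): ttcgcgctCTTCCTTTCCaacttggacg
RPL37A (chr2:216498836-216498863, plus strand): gtctcttcCTTTCTgggctcggacctag
RPL14 (chr3:40457331-40457358, plus strand): tcttcttcCTTCTCgcctaacgccgcca

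In the other 2 members no listed start fell on a tract, but a run of at least 10 pyrimidines that opens with C followed downstream. It began 19 bases after a listed start in RPL32 and 10 bases after one in RPL15. This second search served only members without a tract at a start. How many of all genes have such a run was not counted.
RPL32 (chr3:12841527-12841554, minus strand): gccaccgtCCCTTCTCTCTTCCTCggcg
RPL15 (chr3:23917134-23917161, plus strand): gagtacagCTCTTTCCTTTCCgtctggc

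The tracts had 6 to 10 bases at the listed starts, 16 bases in RPL32 and 13 in RPL15. A match describes these letters and is not evidence of where transcription began in HEK293T cells or of any factor's binding.

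By GENCODE v29 on GRCh38, an annotation that is not the authors' build, the genes lie on 3 chromosomes. RPL22 is at chr1:6185020-6209389 on the minus strand, RPL11 at chr1:23691742-23696835 on the plus strand and RPL5 at chr1:92831983-92841924 on the plus strand. RPL31 is at chr2:101001715-101024032 and RPL37A at chr2:216498189-216579180, both on the plus strand. RPL32 is at chr3:12834485-12841588 on the minus strand, RPL15 at chr3:23916545-23924374 and RPL14 at chr3:40457292-40468587, both on the plus strand. Counts cover coding exons, of which the matched transcripts have 3 to 8. The proteins run from 92 residues in RPL37A to 297 in RPL5. Reads were counted over 73 to 278 codons. A transcript was matched if its annotated coding sequence, with the stop codon, had exactly 20 codons more. Every member had such a transcript, and the exon and residue numbers rest on this match. Within their spans, RPL5 holds the small nucleolar RNA genes SNORA66 and SNORD21, and RPL32 holds SNORA7A. Annotated pseudogenes that carry the gene's name number 35 for RPL5, 30 for RPL31 and 22 for RPL22, and 2 to 12 for the other members, so reads that match both a member and a copy make the levels uncertain.

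Levels are given as CPM after TMM normalisation, which puts libraries of different depth on 1 scale, and to compare genes they were divided by length as CPM per 1000 counted codons. Both scales are relative within a library, so a change in translation or RNA shared by all transcripts of a cell cannot be seen in them, nor can fewer cells be told from less RNA per cell. Libraries held 3001612 to 11469150 RPF counts and 8466193 to 24499266 mRNA counts on the joined transcripts. Over all listed transcripts they held 3141634 to 11998181 RPF counts and 26992075 to 77264087 mRNA counts. The join thus kept most RPF counts but left out most mRNA counts, and the mRNA levels rest on the joined part. The mRNA libraries of the ISRIB pair stood apart from the other pairs. Their counts differed with a chi-square per degree of freedom of 12.22, against 2.16 to 5.48 in the other mRNA pairs and 1.64 to 5.35 in the RPF pairs. Results that rest on them are given with and without each. ATF4, the transcription factor whose translation rises with eIF2 phosphorylation, served as a check of the treatment. Its RPFs rose in Tm by 2.69 ± 0.10 (SE) on the log2 scale (edgeR's quasi-likelihood test, adjusted p = 2.5e-18, n = 2 per group), and in Tm and ISRIB they fell by 2.93 ± 0.11 against Tm (adjusted p = 9.9e-19).

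In untreated cells all 8 members were among the most densely occupied transcripts. Ranked by RPF level per length among 10970 transcripts, they stood between rank 15 (RPL37A) and rank 140 (RPL14), and by mRNA level per length between rank 13 (RPL37A) and rank 90 (RPL22). RPL37A, a small zinc-binding protein, had the highest RPF level, with 13332 and 15652 CPM per 1000 codons in the 2 untreated libraries. RPL32 followed with 11365 and 10896, and RPL15 with 8696 and 10085. RPL5 and RPL11, which together with 5S rRNA form a particle of the large subunit that also binds the ubiquitin ligase MDM2, had 6976 and 7282 (RPL5) and 6723 and 6676 (RPL11). RPL31, which lies near the exit of the peptide tunnel, had 5886 and 6090. RPL22, an RNA-binding protein with a close paralog in RPL22L1, had 4907 and 5177, and RPL14 had 4118 and 4612. No neighbours in this order overlapped in the untreated Ribo-Seq libraries.

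The mRNA levels per length in untreated cells had a different order. RPL37A was again highest with 13142 and 13837 CPM per 1000 codons, RPL32 had 12995 and 11468 and RPL5 had 10915 and 11024. RPL11 (8430 and 8311), RPL15 (8558 and 8112) and RPL31 (8383 and 7585) overlapped each other. RPL14 (6889 and 6731) and RPL22 (5683 and 6494) were lowest and did not overlap. RPL15 stood above RPL5 in Ribo-Seq and below it in mRNA-Seq.

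Translational efficiency (TE), the RPF CPM divided by the mRNA CPM of the replicate with the same letter, was near or below the middle of all transcripts in untreated cells. The highest was in RPL15, with 1.02 and 1.24 in the 2 replicates (mean 1.13 ± 0.161, SD, n = 2). RPL37A had 1.01 and 1.13, RPL32 had 0.875 and 0.95, and RPL22 had 0.864 and 0.797. RPL11 had 0.797 and 0.803, RPL31 had 0.702 and 0.803, RPL5 had 0.639 and 0.661, and RPL14 had 0.598 and 0.685. The replicates overlapped between RPL15 and RPL37A, among RPL22, RPL11 and RPL31, and between RPL5 and RPL14. From 26.8% (RPL14) to 54.8% (RPL15) of the tested transcripts had a lower mean TE.

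**Figure D1:**
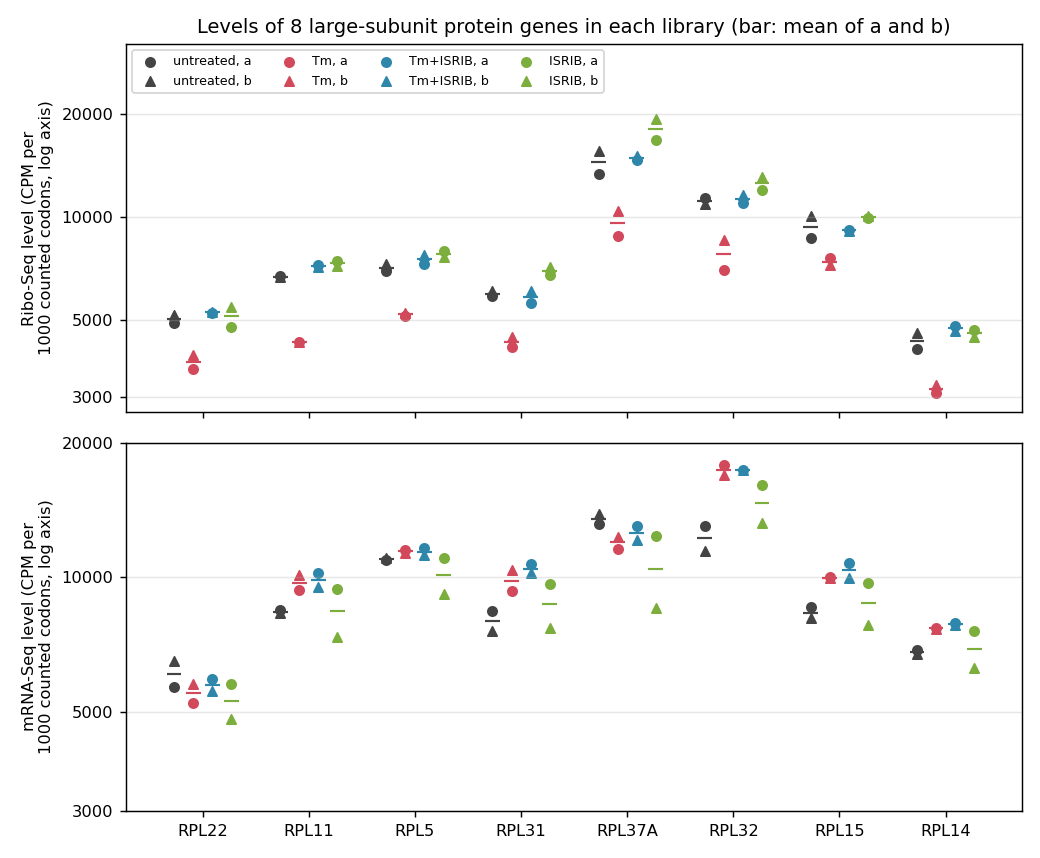
Levels of the 8 genes in each library, in CPM per 1000 counted codons on a log axis, for Ribo-Seq (top) and mRNA-Seq (bottom). Circles are replicate a, triangles replicate b and bars their mean, and colours are the 4 treatments. In Ribo-Seq both Tm points lie below the 6 other points of the same gene in 8 of 8 genes, and in mRNA-Seq the ISRIB points of a gene lie farther apart than those of most other pairs.

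The first comparison asked how 1 hr of ER stress changed the occupancy of these mRNAs. RPFs of 8 of 8 members fell in Tm against untreated cells, where 7.21% of all transcripts tested fell (edgeR's quasi-likelihood test, adjusted p under 0.1). Their median log2 fold change was -0.47, and that of all transcripts was -0.01. The falls were modest in size, from 0.647 of the untreated level in RPL11 to 0.789 in RPL15. Both Tm libraries lay below the 6 others in 8 of 8 members, an arrangement found in 15.1% of all transcripts.

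RPL11 had 1069 and 1062 RPF CPM in untreated cells and 688.2 and 689.4 in Tm. It was 1155 and 1140 in Tm and ISRIB and 1187 and 1144 in ISRIB. The Tm pair was far below the other 6 libraries, which lay close together, and the log2 fold change in Tm was -0.63 ± 0.06 (SE, adjusted p = 3.5e-08). RPL5, the partner of RPL11 in the 5S particle, had 1939 and 2024 in untreated cells, 1431 and 1464 in Tm, 2030 and 2161 in Tm and ISRIB, and 2210 and 2135 in ISRIB. Its Tm pair was again the lowest, with a log2 fold change of -0.45 ± 0.06 (adjusted p = 5.6e-06).

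RPL37A had 973.2 and 1143 RPF CPM in untreated cells, 645.1 and 759.6 in Tm, 1069 and 1100 in Tm and ISRIB, and 1223 and 1414 in ISRIB. Its replicates were wider apart than those of RPL11, and its log2 fold change in Tm was -0.59 ± 0.08 (adjusted p = 5.8e-06). RPL32 had 1318 and 1264 in untreated cells, 812.8 and 998.7 in Tm, 1279 and 1343 in Tm and ISRIB, and 1391 and 1525 in ISRIB. Tm replicate a was the lower of the pair, and the change was -0.51 ± 0.08 (adjusted p = 1.8e-05).

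RPL31 had 641.6 and 663.8 RPF CPM in untreated cells, 455.1 and 487.8 in Tm, 614.5 and 664.8 in Tm and ISRIB, and 738.3 and 780.5 in ISRIB. The ISRIB pair was highest, and the change in Tm was -0.47 ± 0.07 (adjusted p = 1.9e-05). RPL14 had 807.2 and 904 in untreated cells, 603.5 and 637.4 in Tm, 944.1 and 913.8 in Tm and ISRIB, and 920.7 and 878 in ISRIB. Only the Tm pair stood apart, with a change of -0.47 ± 0.07 (adjusted p = 2.0e-05).

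RPL22 had 534.9 and 564.3 RPF CPM in untreated cells, 393 and 431.3 in Tm, 573.6 and 577.7 in Tm and ISRIB, and 523.2 and 598.2 in ISRIB. The ISRIB pair spanned the untreated and the Tm and ISRIB values, and the change in Tm was -0.42 ± 0.07 (adjusted p = 2.8e-04). RPL15 had 1609 and 1866 in untreated cells, 1403 and 1338 in Tm, 1695 and 1690 in Tm and ISRIB, and 1840 and 1870 in ISRIB. The gap between its highest Tm library and its lowest other library was narrow, 1403 against 1609, and its change was the smallest of the 8, -0.34 ± 0.07 (adjusted p = 0.001). An exact permutation test of 2 against 2 libraries cannot give a p below 0.33, so the calls rest on the spread estimated across transcripts.

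The same change was visible in raw counts. Of all joined RPF counts the 8 members held 0.892% and 0.926% without treatment and 0.663% and 0.694% in Tm. They held 0.932% and 0.949% in Tm and ISRIB and 0.977% and 1.002% in ISRIB, so that the 2 Tm libraries were the lowest of the 8. Among the members' own counts, which need no scaling between libraries, the division between genes moved little. Of the members' RPF counts, RPL11 took 12% and 11.2% without treatment and 10.7% and 10.1% in Tm, whereas RPL15 held 18.1% and 19.7% in untreated cells and 21.8% and 19.7% in Tm. RPL5 held 20.6% to 22.5% of them in every Ribo-Seq library.

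**Figure D2:**
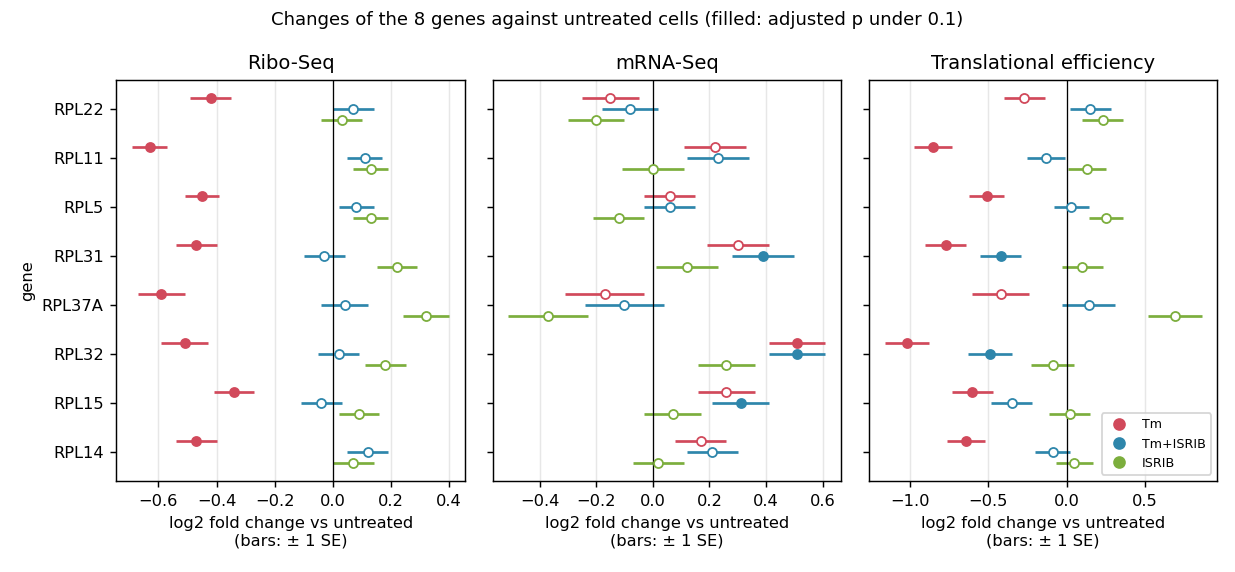
Log2 fold changes of the 8 genes against untreated cells in Ribo-Seq, mRNA-Seq and translational efficiency, from edgeR fits with bars of 1 SE, in Tm, Tm and ISRIB, and ISRIB. Filled points have an adjusted p under 0.1. The Ribo-Seq points for Tm lie between -0.63 and -0.34 and are all filled, those for Tm and ISRIB lie between -0.04 and 0.12 and are all open.

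The next comparison asked whether ISRIB changed the response of these genes to Tm. RPFs of 8 of 8 members rose in Tm and ISRIB against Tm, where 9.53% of all transcripts rose, with a median log2 fold change of 0.53 (0.00 over all transcripts). RPL11 rose most, by 0.74 ± 0.06 (adjusted p = 1.0e-09), and RPL15 least, by 0.30 ± 0.07 (adjusted p = 0.0028). RPL37A rose by 0.63, RPL14 by 0.58, RPL32 by 0.54, RPL5 by 0.53, RPL22 by 0.48 and RPL31 by 0.44, with SEs of 0.06 to 0.08. The same Tm libraries stand in this comparison and in that of Tm with untreated cells, so the order of the members in one is not independent of the other.

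Between Tm and ISRIB and untreated cells, 0 of 8 members were called in Ribo-Seq, where 2.65% of all transcripts were called. None had an unadjusted p under 0.05, and DESeq2 also called 0. The log2 fold changes ran from -0.04 (RPL15) to 0.12 (RPL14) with SEs of 0.06 to 0.08. Differences of the size of these SEs were not detectable at this precision.

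In ISRIB alone, 0 of 8 members were called against untreated cells in Ribo-Seq, where 0.0182% of all transcripts were called. All 8 values were above 0, from 0.03 (RPL22) to 0.32 (RPL37A), with a median of 0.13 (0.00 over all transcripts). RPL22 was -0.07 without ISRIB replicate b, and over the alternatives RPL14 and RPL15 reached down to -0.01. Of the 8, 5 had an unadjusted p under 0.05, a count that was not made over all transcripts. DESeq2 called 0 members. RPL37A changed by 0.32 ± 0.08 (adjusted p = 0.44), and its call depended on the libraries: without untreated replicate b, the higher of its untreated libraries, the value was 0.44 (adjusted p = 0.0032). With the replicate block, a term for the replicate letter, RPL37A was called at 0.32 (adjusted p = 0.051).

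Whether the effect of Tm on RPFs differed with ISRIB was tested as an interaction, the effect of Tm in the presence of ISRIB minus that in its absence. It was positive in 8 of 8 members and called in 5, where 3.80% of all transcripts were called in that direction. It was 0.61 ± 0.09 in RPL11 (adjusted p = 9.9e-05), 0.51 ± 0.10 in RPL14 (adjusted p = 0.0019) and 0.45 ± 0.10 in RPL22 (adjusted p = 0.011). In RPL5 it was 0.40 ± 0.09 (adjusted p = 0.0066), and in RPL32 0.36 ± 0.11 (adjusted p = 0.051). RPL37A (0.31 ± 0.11), RPL31 (0.22 ± 0.10) and RPL15 (0.21 ± 0.09) did not pass, with adjusted p of 0.12, 0.21 and 0.22. Without ISRIB replicate a the count was 3, with RPL22 at 0.36 (adjusted p = 0.13) and RPL32 at 0.30 (adjusted p = 0.26), and 266 of 10970 transcripts were called in either direction, against 757 with all libraries. Without untreated replicate a the count was 7, with RPL37A at 0.42 (adjusted p = 0.01) and RPL15 at 0.31 (adjusted p = 0.014), and 694 transcripts were called. Over all alternatives RPL15 ran from 0.09 to 0.31.

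The mRNA of these genes was not generally lower in Tm. In Tm against untreated cells 1 of 8 members, RPL32, was called, and it rose, where 6.57% of all transcripts rose. RPL32 mRNA was 1507 and 1330 CPM in untreated cells and 2063 and 1969 in Tm. It was 2016 and 2017 in Tm and ISRIB and 1866 and 1534 in ISRIB. The Tm libraries, with and without ISRIB, were the 4 highest, and the log2 fold change in Tm was 0.51 ± 0.10 (adjusted p = 0.031). Without untreated replicate b, Tm replicate a or Tm replicate b it was 0.42, 0.47 and 0.54 and was not called, but in each of these fits 0 of 10970 transcripts were called.

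The other mRNA changes in Tm ran from -0.17 ± 0.14 (RPL37A) to 0.30 ± 0.11 (RPL31), and the median over the 8 was 0.20 (0.00 over all transcripts). RPL31 had 913.7 and 826.8 CPM in untreated cells and 1013 and 1128 in Tm, and RPL15 had 1583 and 1501 against 1848 and 1839. RPL37A had 959.4 and 1010 in untreated cells and 845.5 and 900.2 in Tm. The untreated and Tm pairs did not overlap in these 3 genes, nor in RPL32, RPL11, RPL14 and RPL5. How many of all transcripts share this was not counted. Pairs that do not overlap cannot give a p below 0.33 in an exact permutation test, so no conclusion is drawn from them. RPL31, RPL15 and RPL37A were not called in the edgeR fit with the low-count filter and no block. RPL31 was called by DESeq2 (adjusted p = 0.088) and by edgeR without the low-count filter (adjusted p = 0.084). With the replicate block, edgeR called RPL31 (adjusted p = 0.079) and RPL15 (adjusted p = 0.077). Without ISRIB replicate a, 6 of 8 members were called, and calls over all transcripts in either direction rose as well, from 1209 to 2917 of 10970. RPL31 at 0.31, RPL15 at 0.27, RPL11 at 0.22, RPL14 at 0.18 and RPL32 rose, and RPL37A fell by 0.17. The count was also 6 without ISRIB replicate b (2894 transcripts called) and when only untreated and Tm libraries were fitted (3162), so the number of mRNA calls, in the members and over all transcripts, depended on whether both ISRIB libraries were in the fit.

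In Tm and ISRIB against untreated cells, 3 of 8 members rose in mRNA, where 8.27% of all transcripts rose. RPL32 changed by 0.51 ± 0.10 (adjusted p = 0.024), RPL31 by 0.39 ± 0.11 (adjusted p = 0.058) and RPL15 by 0.31 ± 0.10 (adjusted p = 0.082). Without a single library the count ran from 0 (without untreated replicate b or either Tm and ISRIB replicate) to 5 (without either ISRIB replicate), while calls over all transcripts ran from 0 to 3302 of 10970 against 1558 with all libraries. Between Tm and ISRIB and Tm, 0 of 8 members were called in mRNA-Seq, where 0.00% of all transcripts were called. None had an unadjusted p under 0.05, DESeq2 called 0, and the values ran from -0.00 (RPL5) to 0.09 (RPL31).

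In ISRIB against untreated cells 0 of 8 members were called in mRNA-Seq, where 1.15% of all transcripts were called. Of the 8, 2 had an unadjusted p under 0.05, RPL37A at -0.37 and RPL32 at 0.26, and DESeq2 called 0. The 2 ISRIB libraries disagreed. For RPL37A mRNA, replicate a gave 903.7 CPM and replicate b 621.3, and replicate b was the lower in 8 of 8 members. Without replicate a, 3 members were called lower, RPL37A at -0.67 among them, and without replicate b, 3 members were called higher, while calls over all transcripts rose from 126 to 792 and 905 of 10970. The mRNA interaction was called in 0 of 8 members, where 0.00% of all transcripts were called. Of the 8, 1 had an unadjusted p under 0.05 (RPL37A), and DESeq2 called 0.

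**Figure D3:**
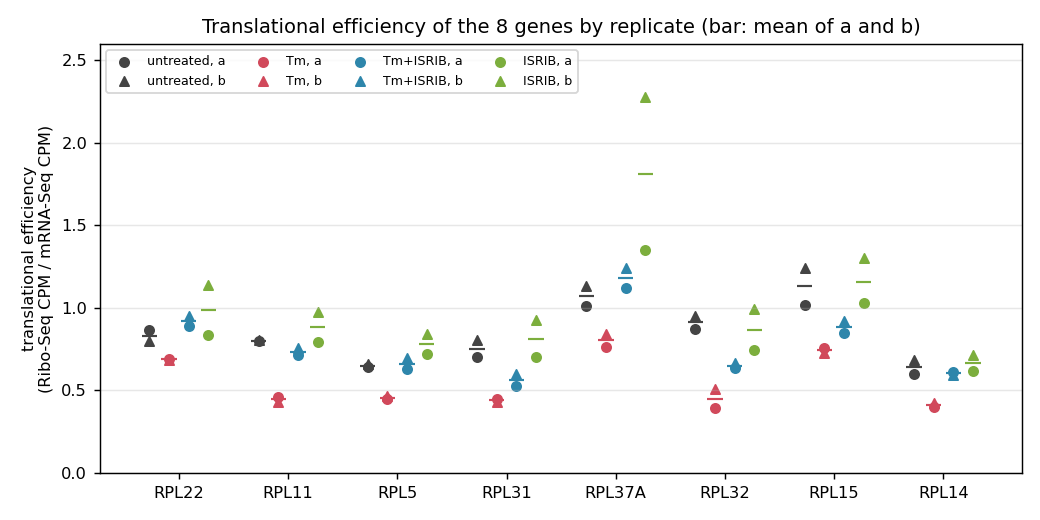
Translational efficiency of the 8 genes, the RPF CPM divided by the mRNA CPM, by treatment, with circles for replicate a, triangles for replicate b and bars for their mean. Both Tm points lie below the 6 other points in 8 of 8 genes, and the ISRIB points of RPL37A, at 1.35 and 2.28, lie farthest apart.

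TE fell in 6 of 8 members in Tm, where it fell in 8.71% of all transcripts tested. The median over the 8 was -0.62 on the log2 scale. Both Tm values of TE lay below the 6 others in 8 of 8 members and in 12.2% of all transcripts. RPL32 fell most, from 0.875 and 0.95 in untreated cells to 0.394 and 0.507 in Tm. Its pairs were well apart, and the change was -1.02 ± 0.14 (adjusted p = 1.5e-04), with RPFs that fell and mRNA that rose.

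RPL11 went from 0.797 and 0.803 to 0.462 and 0.43, a log2 change of -0.85 ± 0.12 (adjusted p = 3.0e-04). RPL31 went from 0.702 and 0.803 to 0.449 and 0.432 (-0.77 ± 0.13, adjusted p = 9.4e-04). RPL14 changed by -0.64 ± 0.12, RPL15 by -0.60 ± 0.13 and RPL5 by -0.51 ± 0.11, with adjusted p of 0.0019, 0.0051 and 0.006. RPL22 (-0.27 ± 0.13, adjusted p = 0.2) and RPL37A (-0.42 ± 0.18, adjusted p = 0.13) did not pass. These were the members whose mRNA log2 fold change in Tm was below 0. Without ISRIB replicate a or b 8 of 8 passed, and calls over all transcripts in either direction rose from 1746 to 2276 and 2257 of 10970. Without untreated replicate b 5 passed, with RPL15 at -0.44 (adjusted p = 0.11), and without Tm replicate a 5 passed, with RPL5 at -0.49 (adjusted p = 0.1), where 765 and 524 transcripts were called.

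TE rose in 6 of 8 members in Tm and ISRIB against Tm, where it rose in 3.68% of all transcripts, with a median of 0.54. RPL11 rose by 0.72 ± 0.12 (adjusted p = 0.0025), RPL14 by 0.55 ± 0.12 (adjusted p = 0.013), RPL5 by 0.54 ± 0.11 (adjusted p = 0.012) and RPL32 by 0.53 ± 0.14 (adjusted p = 0.039). RPL37A (0.56 ± 0.18) and RPL22 (0.42 ± 0.13) passed with adjusted p of 0.088 and 0.085. RPL31 (0.35 ± 0.13) and RPL15 (0.25 ± 0.13) did not, with adjusted p of 0.16 and 0.32. The count was 1 without either Tm replicate and 2 without either Tm and ISRIB replicate, while the members' median stayed between 0.46 and 0.58. Calls over all transcripts in either direction fell too, from 670 to between 71 and 195 of 10970. With scaling by library totals it was 4.

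Against untreated cells, TE in Tm and ISRIB was lower in 2 of 8 members, where it was lower in 5.00% of all transcripts. RPL32 had 0.634 and 0.666, below its untreated 0.875 and 0.95, with a change of -0.49 ± 0.14 (adjusted p = 0.045). RPL31 had 0.527 and 0.598, below its untreated 0.702 and 0.803, with a change of -0.42 ± 0.13 (adjusted p = 0.068). Both were members whose mRNA rose and whose RPFs did not differ detectably in that comparison. The count was 0 without untreated replicate b or either Tm and ISRIB replicate, and 1 without either Tm replicate, where 83 to 688 of 10970 transcripts were called in either direction against 983 with all libraries.

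In ISRIB alone 0 of 8 members were called in TE, where 0.191% of all transcripts were called. Of the 8, 2 had an unadjusted p under 0.05. RPL37A had the largest value, 0.69 ± 0.17 (adjusted p = 0.21), and was called by DESeq2 and with the replicate block (0.70, adjusted p = 0.056), but no member was called with a block for each lysate. Without ISRIB replicate a it was 1.08 (adjusted p = 0.0007), and without ISRIB replicate b it was 0.33 and was not called. RPL37A had TE values of 1.35 and 2.28 in the ISRIB replicates against 1.01 and 1.13 in untreated cells. ISRIB replicate b had the lower mRNA level, 621.3 CPM against 903.7 in a, and the higher RPF level, 1414 against 1223. The TE interaction was called in 0 of 8 members, where 1.39% of all transcripts were called. Of the 8, 3 had an unadjusted p under 0.05 (RPL11 at 0.59, RPL32 at 0.62 and RPL14 at 0.50). DESeq2 called 2 members, and 156 of 10970 transcripts. The members' median was 0.27 with all libraries, 0.10 without ISRIB replicate a and 0.43 without ISRIB replicate b.

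Other genes of the ribosome were counted from lists fixed for this comparison. All 4 small-subunit proteins analysed fell in RPFs in Tm, with a median of -0.47. RPS27, a zinc-binding protein, changed by -0.82 ± 0.08 (adjusted p = 2.6e-08), RPS27A, which is made as a fusion with ubiquitin, by -0.50, RPS7 by -0.44 and RPSA, also known as a laminin receptor, by -0.41. The 8 large-subunit members lay inside this range except RPL15, at -0.34. All 4 rose in Tm and ISRIB against Tm, from 0.38 (RPSA) to 0.99 (RPS27). EEF1B2, a subunit of the exchange factor of elongation factor eEF1A, fell by 0.30 ± 0.07 (adjusted p = 0.0061) and rose by 0.45 with ISRIB.

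RPS27, RPS27A, RPSA and EEF1B2 were the 4 of these 5 genes that had a TOP tract at a listed start. RPS7 had none, and a run downstream of its start was not searched for. The starts of the 4 are shown for comparison with those of the members.
RPS27 (chr1:153990754-153990781, plus strand): ctttcgctCCTTTCCggcggtgacgacc
RPS27A (chr2:55232680-55232707, plus strand): cgttcttcCTTTTCgatccgccatctgc
RPSA (chr3:39406712-39406739, plus strand): ccgcctgtCTTTTCCgtgctacctgcag
EEF1B2 (chr2:206159887-206159914, plus strand): cttcgggtCCTTTTTCCTCTCTTCagcg

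Factors that assemble the large subunit but are not part of it had other values. Of 11 such genes, 0 were called in RPFs in Tm, where 13.5% of all transcripts were called in either direction. Of the 11, 3 had an unadjusted p under 0.05, and the 11 had a median of 0.10. They ran from -0.03 (MKI67IP) to 0.23 (WDR12, a partner of PES1 and BOP1), so that none reached the smallest fall among the members. In Tm and ISRIB against Tm, 2 of the 11 fell (EBNA1BP2 and MRTO4, named after their values were seen) and 0 rose, where 8.20% of all transcripts fell. Proteins of the large subunit of the mitochondrial ribosome, which are encoded in the nucleus and made by the same cytosolic ribosomes, were mixed. Of 11, 1 fell in Tm (MRPL37, -0.48 ± 0.08, adjusted p = 8.7e-05) and 2 rose (MRPL44 at 0.34 and MRPL35 at 0.34), with a median of 0.02. Of all transcripts, 7.21% fell and 6.33% rose in Tm. In Tm and ISRIB against Tm, 1 of the 11 rose (MRPL37, by 0.47) and 3 fell (MRPL35 at -0.42, MRPL33 at -0.40 and MRPL44 at -0.26). There, 9.53% of all transcripts rose and 8.20% fell.

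**Figure D4:**
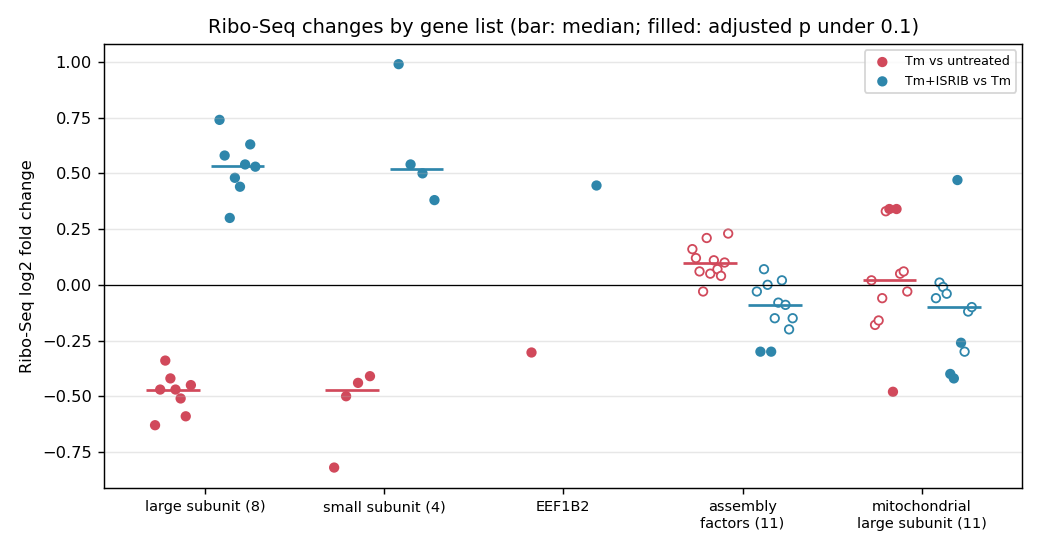
Ribo-Seq log2 fold changes of single genes by list, in Tm against untreated cells (red) and in Tm and ISRIB against Tm (blue), with bars for the median of a list and filled points for an adjusted p under 0.1. The 8 large-subunit members, the 4 small-subunit proteins and EEF1B2 all lie below 0 in Tm and above 0 with ISRIB, while the 11 assembly factors centre on 0.10 in Tm and the 11 mitochondrial proteins on 0.02.

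The pattern over the 8 Ribo-Seq libraries was compared across 1838 other named transcripts, by the root mean square difference from the members' mean profile on a log2 scale. The 5 most alike were RPS7 (0.020), RPS27A (0.046), RPSA (0.063), CERS2, a ceramide synthase (0.075), and LRRFIP2 (0.084). The members themselves lay between 0.041 and 0.117 from their own mean, and the median named transcript at 0.283. The 5 were chosen by their values in these same libraries, so a fall in Tm and a rise with ISRIB follow from the choice. CERS2 RPFs changed by -0.44 in Tm and by 0.46 in Tm and ISRIB against Tm, and those of LRRFIP2 by -0.36 and 0.39. By edgeR's quasi-likelihood test the fall in Tm was called in CERS2 (adjusted p = 0.0016) but not in LRRFIP2 (adjusted p = 0.18). Names cover only the readable part of the table, so other transcripts could be closer.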

How the data were processed

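Each library was deposited as whole-number read counts for coding sequences, which the authors neither normalised nor pooled, under UCSC identifiers and beside the codons counted. The submitters' processing notes name CASAVA 1.8, Bowtie 1.0.0, TopHat2 2.0.7 and 2.0.10 and the build hg19. Assignment of reads shared by isoforms or gene copies was done in that counting and cannot be repeated from counts. Identifiers were matched without their version between assays and had to have equal counted codons (19044 of 21520 coding Ribo-Seq transcripts). Symbols came from the readable part of the authors' table of genes.

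Transcripts were kept by filterByExpr with a minimum count of 10 in both assays (10970). edgeR 4.0.16 in R 4.3.3 (TMM, glmQLFit, glmQLFTest) was fitted over all 8 libraries of an assay, or all 16 for TE as the interaction of treatment and assay, with Benjamini-Hochberg adjustment over all transcripts in each of 5 comparisons and a threshold of 0.1, after the study's own. SEs are the absolute log2 fold change over the square root of F. The common biological coefficient of variation was 5.62% (RPF), 6.7% (mRNA) and 6.29% (TE). With n = 2 per treatment, p-values rest on a spread between these replicate libraries, pooled over the 4 treatments and estimated across transcripts. Profiles used log2 of CPM plus 0.5. DESeq2 1.42.0, other scalings, filters and sample sets were alternatives. The test code was checked on simulated data. Tables and figures used Python 3.11.15, pandas 2.3.3, numpy 2.4.6 and matplotlib 3.10.9. Named genes were the 8 members, ATF4 as a check, all genes of a list with at most 6 tested and otherwise the lowest and highest RPF change in Tm, and the 5 nearest profiles. MRPL35 and MRPL33, which were called, were named after their values were seen. The members and lists were chosen with earlier results of these data known. No protein sequences were used here, and 1 gene is not reported here.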

Additional observations from a re-analysis of the deposited data

Results flagged for a closer look

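For 5 members the effect of Tm on RPFs differed between cells with and without ISRIB, by a test of the difference itself (interaction, edgeR's quasi-likelihood test, n = 2 per treatment). Of all transcripts tested, 3.80% were called with a positive difference. The effect with ISRIB minus the effect without it was 0.61 on the log2 scale in RPL11 (adjusted p = 9.9e-05), 0.51 in RPL14 (adjusted p = 0.0019), 0.45 in RPL22 (adjusted p = 0.011), 0.40 in RPL5 (adjusted p = 0.0066) and 0.36 in RPL32 (adjusted p = 0.051). The differences between these members and the other 3 were not tested. RPL32 and RPL22 did not keep their calls in every fit that left out 1 replicate. RPL32 lost its call at 0.22 without Tm replicate a and at 0.30 without ISRIB replicate a. It also lost it at 0.39 and 0.32 without Tm and ISRIB replicate a and b. RPL22 lost its call at 0.36 without ISRIB replicate a. Groups of 2 libraries are too small for a test of a single outlying library.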

How the results depend on the processing

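The counts of members called in Ribo-Seq in Tm against untreated cells and in Tm and ISRIB against Tm were 8 under every alternative, and that in Tm and ISRIB against untreated cells was 0. With 3 exceptions near 0, the log2 fold changes printed for single members kept their sign under every alternative, namely DESeq2, median-ratio scaling, library totals, no filter on low counts, only the treatments compared, all transcripts of the assay, the replicate block and leaving out each replicate. The exceptions were RPL22 RPFs in ISRIB (-0.07 to 0.12 without a replicate), RPL15 RPFs in Tm and ISRIB against untreated cells (-0.14 to 0.08) and RPL5 mRNA in Tm and ISRIB against Tm (-0.03 to 0.02, with 0.01 without the low-count filter and 0.00 with only the treatments compared or all transcripts of the assay). Not counted among these are RPL14 and RPL15 RPFs in ISRIB, whose main fold changes are not printed and which reached down to -0.01. Without the low-count filter, 1 member was called in RPFs in ISRIB, 2 in mRNA in Tm and 1 in TE in ISRIB. DESeq2 called 2 in mRNA in Tm, 1 in TE in ISRIB and 2 in the TE interaction. With only the treatments compared, 6 were called in mRNA in Tm and 5 in mRNA in Tm and ISRIB against untreated cells. There, 3162 and 2952 of 10970 transcripts were called in either direction.

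The replicate letters were not taken to pair the samples, since not every pair of treatments had same-letter deviations that correlated above 0.1. The correlations ran between -0.16 and 0.20 in Ribo-Seq, between -0.30 and 0.62 in mRNA-Seq and between -0.08 and 0.06 across the assays, with 0.62 for the mRNA of Tm and ISRIB and of ISRIB. With the replicate block 1 member was called in RPFs in ISRIB, 3 in mRNA in Tm, 1 in TE in ISRIB and 1 in the TE interaction, and calls in mRNA in Tm over all transcripts rose from 1209 to 1780. With a replicate block for each lysate, both TE counts were 0. A fit of only the treatments compared, with the letters of the untreated cells crossed in the block, was chosen after seeing the data. In mRNA in Tm and ISRIB against untreated cells it called 6 members, of which 5 rose and 1 fell. The same treatments without a block gave 5. Calls over all transcripts in either direction were 4103 of 10970 with this block and 2952 without it.

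Leaving out 1 replicate of both assays, the lone sample being assumed to vary like the others, gave 0 to 1 members in RPFs in ISRIB (1 without untreated b), 3 to 7 in the RPF interaction (3 without ISRIB a), 0 to 6 in mRNA in Tm (0 without untreated b or either Tm replicate, 6 without either ISRIB replicate) and 0 to 5 in mRNA in Tm and ISRIB against untreated cells (5 without either ISRIB replicate, 0 or 1 without any other). It gave 0 to 3 in mRNA in ISRIB and 0 to 1 in the mRNA interaction, above 0 only without an ISRIB replicate. In TE it gave 1 to 7 in Tm and ISRIB against Tm (1 without either Tm replicate, 2 without either Tm and ISRIB replicate), 0 to 3 in Tm and ISRIB against untreated cells (0 without untreated b or either Tm and ISRIB replicate, 1 without either Tm replicate), 0 to 1 in ISRIB (1 without ISRIB a) and 0 to 3 in the interaction (3 without ISRIB b). The cause of these differences was not tested. Counts carry no molecular identifiers, so PCR copies cannot be told from separate fragments, and the Tm Ribo-Seq libraries are the shallowest.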
